A study of Homo sapiens with 12 samples.

Results

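The constitutive proteasome genes were followed through 12 RNA sequencing libraries of THP-1 cells, a human line grown from a monocytic leukemia. Members were taken from the count table as protein-coding genes named PSMA, PSMB, PSMC, PSMD, PSMF or PSMG with a number, together with PSME3, PSME4 and POMP. The inducible subunits PSMB8, PSMB9 and PSMB10 were left out. This gave 44 genes of 62588 with an Ensembl identifier, of which 42 had enough reads to be tested. The other 2, PSMA8 and PSMB11, encode subunits known from testis and thymus, and each had 0 counts in all 12 libraries, which allows up to 3 counts per library from counting error alone. The groups were cells given 1 μg/mL of the cyclic dinucleotide 3'-3'-cGAMP for 8 h (n = 3), untreated cells (n = 3), cells given 20 μM chlorquinaldol for 8 h (n = 3) and cells given 50 μM chlorquinaldol for 8 h (n = 3). cGAMP binds STING and served the study as its positive control for innate antiviral signalling. Chlorquinaldol, a hydroxyquinoline that carries chlorine, is an antiseptic applied to skin. No vehicle or harvest time is stated for the untreated cells, and all groups are the same leukemia line, so the results describe that line.

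The proteasome degrades proteins marked with ubiquitin. Its core is a stack of rings, with gated outer rings of alpha subunits and inner rings of beta subunits, some of which carry the cutting sites. A regulatory particle with a base of ATPases and a lid recognises, unfolds and feeds substrates into the core. Dedicated chaperones assemble both parts. In cells that receive interferon signals, the inducible catalytic subunits replace the constitutive ones and give the immunoproteasome, which shapes the peptides shown on MHC class I molecules.

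Libraries held 17620929 to 19222607 gene-assigned counts, and the smallest was 20 μM replicate 2. Nothing in the labels says that replicates came from separate cultures, so p-values measure the spread between these libraries, which may be technical. Of 10 monocytic markers, 9 or 10 reached 1 FPKM (fragment counts scaled for transcript length and library size) in every library, with a summed level of 1248 to 1338 FPKM in cGAMP libraries, 1135 to 1158 in untreated ones, 818 to 913 in those of 20 μM and 854 to 935 in those of 50 μM. The sum hides opposite moves, since 3 of these markers rose and 1 fell with cGAMP, 3 rose and 5 fell at 20 μM, and 4 rose and 4 fell at 50 μM, where CSF1R rose by 1.42 ± 0.13 (log2) and LYZ and CEBPA fell by 1.12 ± 0.09 and 1.38 ± 0.09. Of 16 markers of T, NK, B, epithelial, fibroblast and erythroid cells, 2 reached that level, MS4A1, KRT19, COL1A2 and HBB were listed at 0 throughout, and the sum lay between 18.8 and 29.7 FPKM. Mitochondrially encoded genes took 4.30 to 4.63% of counts with cGAMP, 5.44 to 6.08% in untreated cells, 3.25 to 3.75% in the 20 μM libraries and 2.25 to 2.46% in the 50 μM libraries. The part of these shifts in the results on proteasome genes was not tested, and in bulk RNA fewer cells of a type and less RNA per cell cannot be told apart.

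The mRNAs of the members were not at 1 common level, although the protein complex holds its subunits in fixed proportion. On the FPKM scale, which allows levels of different genes to be compared, untreated cells held the most of PSMB4, a beta subunit without a cutting site, at 354 ± 15.3 FPKM (SD, n = 3). PSMB1, also a structural beta subunit, followed at 300.0 ± 15.2, and the alpha subunit gene PSMA4 at 246 ± 3.57. The lowest tested members were the assembly factor gene PSMG4 at 9.28 ± 1.24 and the base chaperone gene PSMD5 at 7.17 ± 0.622 FPKM. Among tested members of the core and the regulatory particle, the lowest was the lid gene PSMD11 at 31.7 ± 1.01 FPKM. From PSMA4 down to PSMA7 (211 FPKM), the untreated ranges of each neighbouring pair in the order overlapped. PSMB4 and PSMB1 were separate from the genes below them.

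Among the 14 constitutive core subunits, the highest level was divided by the lowest in each library. The ratio, which was not tested, was 12.1 ± 0.480 with cGAMP, 8.46 ± 0.720 in untreated cells, 11.1 ± 0.412 at 20 μM and 14.5 ± 3.08 at 50 μM (mean ± SD, n = 3). PSMB2, a structural beta subunit gene, was the lowest of them in all libraries. It stood at 45.7, 46.6 and 46.6 FPKM with cGAMP, 42.8, 44.4 and 38.8 in untreated cells, 28.5, 27.6 and 27.9 at 20 μM, and 18.97, 26.31 and 23.68 at 50 μM. The chlorquinaldol libraries were all below the others for this gene.

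**Figure D1:**
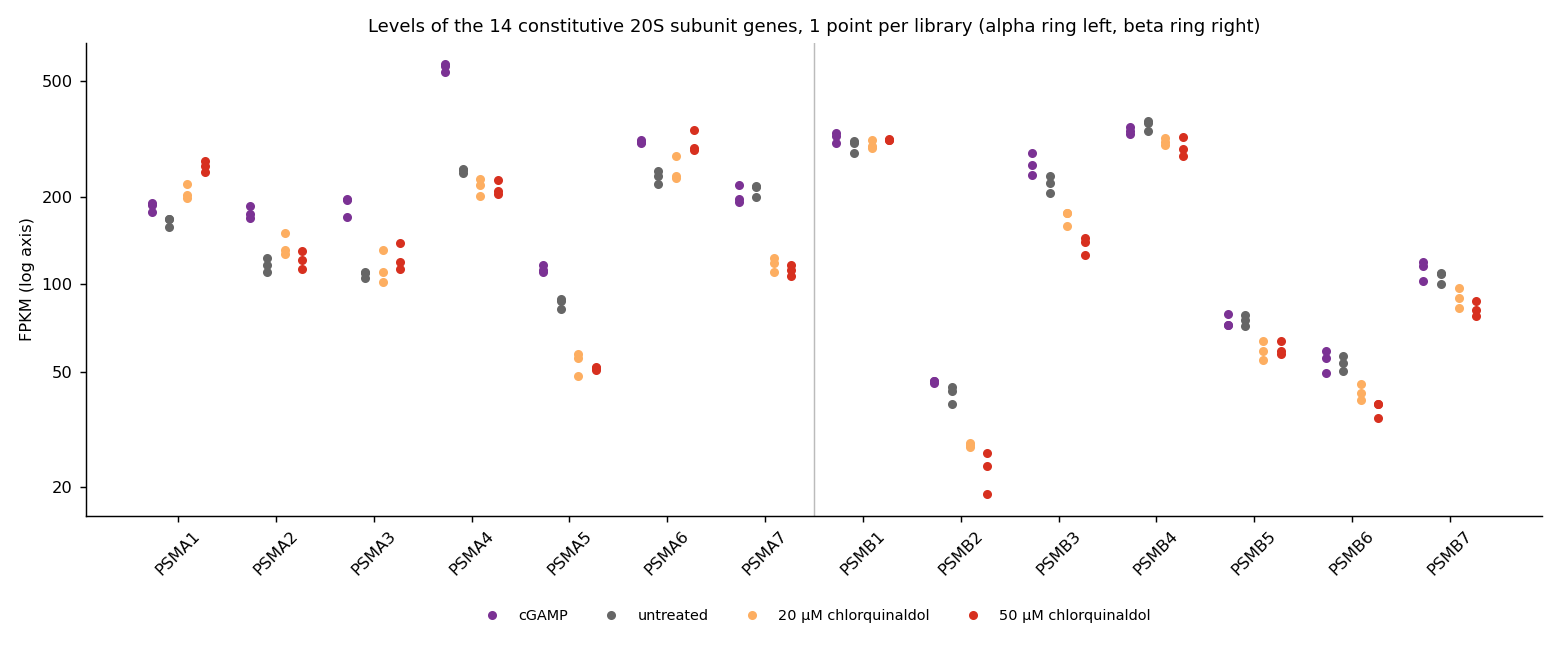
Levels of the 14 constitutive core subunit genes in FPKM on a log axis, with 1 point per library and colours for cGAMP, untreated, 20 μM and 50 μM chlorquinaldol. PSMA4 stands apart with cGAMP, at 539 to 572 FPKM, and PSMB2 is the lowest gene in each group.

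All members together took 0.457 to 0.478% of gene-assigned counts with cGAMP, 0.412 to 0.427% in untreated cells, 0.347 to 0.385% in the 20 μM libraries and 0.363 to 0.371% in the 50 μM libraries. The cGAMP libraries lay above and the chlorquinaldol libraries below every untreated one. The 2 chlorquinaldol groups overlapped. These shares are summed over genes of very different level and were not tested. The rise with cGAMP was not shared evenly, since PSMA4 alone averaged 7227 counts there and 3133 in untreated cells.

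Changes were tested gene by gene with edgeR's quasi-likelihood test, on counts scaled by TMM factors (given as scaled CPM), with Benjamini-Hochberg adjustment over all 16628 tested genes and a threshold of 0.05. Changes are log2 values ± SE. Against untreated cells, cGAMP raised 8 of the 42 tested members and lowered 1, which is 21.4%, where 23.3% of all tested genes were called. At 20 μM chlorquinaldol 3 rose and 27 fell, 71.4% against 55.1% of all genes, and at 50 μM 7 rose and 22 fell, 69.0% against 66.9%. Among all genes the calls split nearly evenly, with 27.1% higher and 28.0% lower at 20 μM and 32.2% higher and 34.7% lower at 50 μM. The median member changed by 0.06 with cGAMP, -0.26 at 20 μM and -0.23 at 50 μM, where the medians of all genes were -0.05, -0.00 and -0.03. The cGAMP median was 0.11 without 50 μM replicate 2 or 3 or any 1 of the 20 μM libraries, and 0.01 with log2(FPKM + 1). The 20 μM median was -0.17 without 20 μM replicate 1, and the 50 μM median -0.35 with log2(FPKM + 1). The comparisons with untreated cells share the same 3 untreated libraries.

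**Figure D2:**
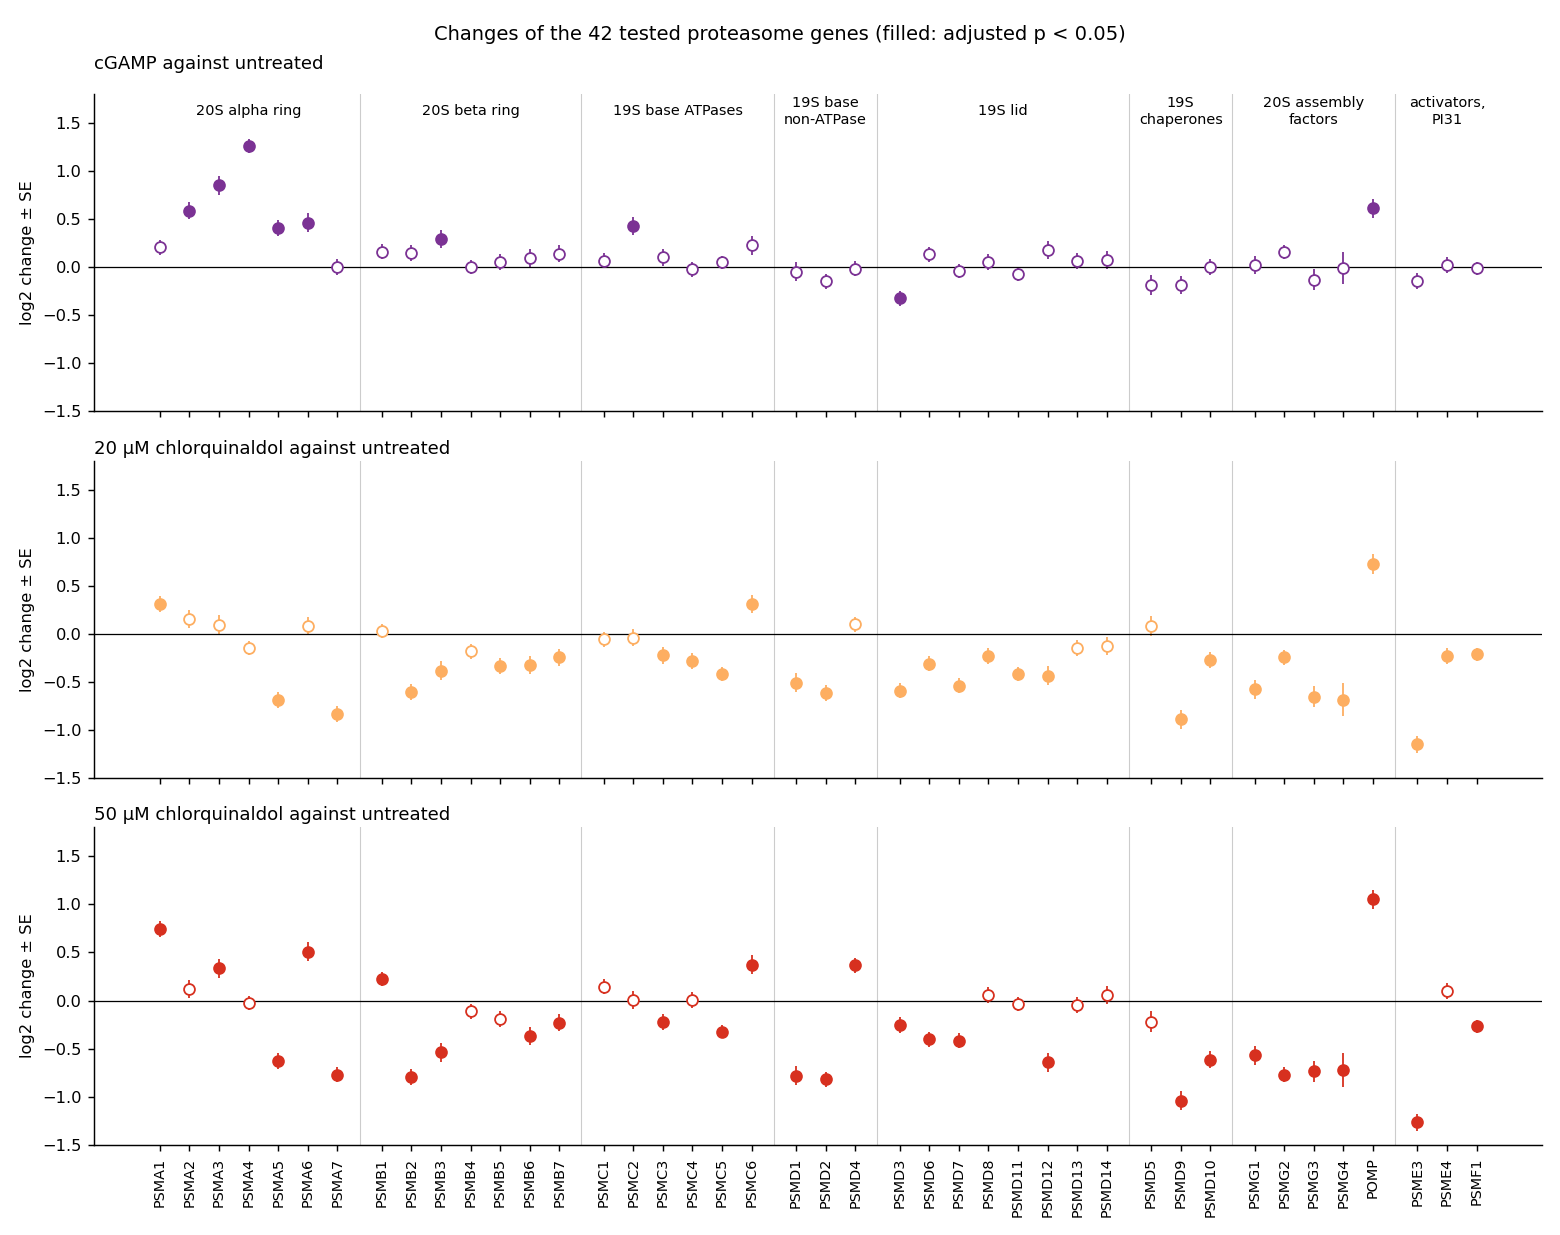
Log2 change ± SE of the 42 tested members against untreated cells, for cGAMP, 20 μM and 50 μM chlorquinaldol from top to bottom, grouped by role, with filled points for an adjusted p below 0.05. Alpha ring genes and POMP lead with cGAMP, at up to 1.26, while POMP stands alone among assembly factors at 50 μM with 1.05.

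cGAMP was compared with untreated cells because it was the study's control for antiviral signalling. Among the constitutive genes the calls lay mostly in the alpha ring, where 5 of 7 tested genes rose (PSMA2, PSMA3, PSMA4, PSMA5 and PSMA6), with a median log2 change of 0.46. In the beta ring 1 of 7 rose, PSMB3, and among the 6 base ATPases 1 rose, PSMC2 by 0.43 ± 0.09. Of the other members POMP rose and the lid gene PSMD3 fell, while the non-ATPase base subunits, base chaperones and activators had no call. The share of all genes called higher was 11.6%, and that called lower 11.8%.

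PSMA4 encodes an alpha subunit whose yeast counterpart helps close the gate of the core. It had 384, 374 and 395 scaled CPM in the cGAMP libraries, against 155, 159 and 166 in untreated cells. All 3 cGAMP libraries were above every other library of the study, of which the highest was the untreated one with 166. The change with cGAMP was 2.40-fold (log2 1.26 ± 0.07, adjusted p = 4.09e-10), and PSMA4 (ENSG00000041357, chromosome 15, 78540405 to 78552419) was the 1 member to pass 2-fold there. Neither dose of chlorquinaldol gave a call (-0.14 ± 0.07 at 20 μM, adjusted p = 0.105, and -0.03 ± 0.07 at 50 μM, adjusted p = 0.754). With the deposited FPKM, log2(FPKM + 1), it was lower at both doses, by 0.18 and 0.20 (adjusted p = 0.0338 and 0.0167), and after centring of libraries it had no call. In the direct comparison with cGAMP the gene was lower by 1.41 ± 0.07 at 20 μM and by 1.29 ± 0.07 at 50 μM (adjusted p = 7.02e-11 and 8.60e-11).

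PSMA3, another alpha subunit gene, had 138, 141 and 124 scaled CPM with cGAMP, against 70.3, 75.3 and 77.2 in untreated cells. The groups did not overlap, and the gene rose 1.81-fold (log2 0.85 ± 0.10, adjusted p = 5.95e-06). An antisense gene, PSMA3-AS1, lies opposite PSMA3 with no shared exonic base. It had 25.1% as many counts as PSMA3 and changed by 0.17 ± 0.10 with cGAMP (adjusted p = 0.261). Whether counting used the read strand is not given in the sources used here, so reads of such pairs could be exchanged.

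PSMA6, also of the alpha ring, had 235, 244 and 238 scaled CPM with cGAMP, against 161, 176 and 183 in untreated cells. The cGAMP libraries were close together and above all untreated ones (log2 0.46 ± 0.10, adjusted p = 0.00213). PSMA2 rose by 0.59 ± 0.09 and PSMA5 by 0.41 ± 0.09. On the same strand PSMA2 shares 781 exonic bases with AC010132.3 and PSMA6 shares 919 with AL121594.1. Those genes had 8.58% and 5.90% as many counts and no call with cGAMP. PSMA1 had 174, 173 and 167 scaled CPM with cGAMP, against 147, 145 and 154 in untreated cells. Its libraries did not overlap but its change of 0.21 ± 0.08 did not pass (adjusted p = 0.0824). It passed when any 1 of the chlorquinaldol libraries was left out (adjusted p down to 0.0193), with only the groups compared (0.00700) and with DESeq2 (0.0388). PSMA7 was at 0.00 ± 0.08.

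POMP, the maturation protein that escorts beta subunits into the forming core, had 136, 136 and 134 scaled CPM with cGAMP, against 77.6, 90.6 and 97.2 in untreated cells. The 3 cGAMP libraries were nearly equal and all higher (1.53-fold, log2 0.61 ± 0.10, adjusted p = 0.000259). PSMD3, a scaffold subunit of the lid, had 78.1, 88.5 and 89.2 scaled CPM with cGAMP, against 108, 112 and 101 in untreated cells. It fell by 0.33 ± 0.08 (adjusted p = 0.00606), with no overlap. Of the 9 calls, 8 remained when any single library was left out. The exception was PSMB3 (0.29 ± 0.09, adjusted p = 0.0315), whose call ended without untreated replicate 1 or 2 or without cGAMP replicate 2 or 3 (adjusted p up to 0.150).

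The stretches just before the start of 4 members with called changes of over 1.8-fold are shown, since short motifs tied to interferon and oxidative stress signals can be read in them. They were taken from RefSeq on GRCh38.p14, which had an entry for 38 of the 44 members, and 250 bases before each start were searched on both strands. Capitals mark an interferon-stimulated response element core (GAAA, any 2 bases, GAAA) in PSMA4, at chr15:78540155-78540404. They mark CCAAT boxes in PSMA3, at chr14:58244593-58244842, and antioxidant response element cores (TGACNNNGC) in PSMD9, at chr12:121888540-121888789. POMP, at chr13:28658880-28659129, has none of the 3 motifs in this window. PSME3, which also changed by over 1.8-fold, is not printed. Its window, at chr17:42833147-42833396, holds 1 CCAAT box and neither of the other motifs. That window precedes the RefSeq start but lies inside the GENCODE span of the gene, 42824385 to 42843758. Bases before the earlier start of that span were not searched. Each of these genes lies on the plus strand.
PSMA4: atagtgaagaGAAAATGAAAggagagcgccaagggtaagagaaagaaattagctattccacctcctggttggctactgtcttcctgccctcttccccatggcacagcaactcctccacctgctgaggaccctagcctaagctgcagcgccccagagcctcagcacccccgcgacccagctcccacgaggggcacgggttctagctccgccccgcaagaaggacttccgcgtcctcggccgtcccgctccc
PSMA3: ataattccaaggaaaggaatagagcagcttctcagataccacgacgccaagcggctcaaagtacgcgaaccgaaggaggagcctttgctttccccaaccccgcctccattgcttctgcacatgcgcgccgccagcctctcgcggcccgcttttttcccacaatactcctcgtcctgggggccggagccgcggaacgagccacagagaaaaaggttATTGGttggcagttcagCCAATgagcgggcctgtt
POMP: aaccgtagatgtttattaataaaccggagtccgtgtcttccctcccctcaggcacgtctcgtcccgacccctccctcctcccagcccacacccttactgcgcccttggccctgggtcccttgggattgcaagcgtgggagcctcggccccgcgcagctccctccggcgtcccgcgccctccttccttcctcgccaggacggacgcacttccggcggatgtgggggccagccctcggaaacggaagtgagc
PSMD9: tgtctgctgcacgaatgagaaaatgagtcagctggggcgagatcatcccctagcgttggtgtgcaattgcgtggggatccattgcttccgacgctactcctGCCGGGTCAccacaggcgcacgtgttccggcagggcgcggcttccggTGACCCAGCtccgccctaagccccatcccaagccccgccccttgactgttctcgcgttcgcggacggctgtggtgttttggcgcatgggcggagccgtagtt

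The interferon element core was found in 3 members (PSMA4, PSMB4 and PSMG4), 7.89% of those with an entry, and in 3.07% of all 27305 promoters of the same length. In PSMA4 it begins at position -240 relative to the start. PSMB4 and PSMG4 hold the core too, and their changes with cGAMP were 0.00 ± 0.08 and -0.00 ± 0.17. The PSMG4 window, at chr6:3258697-3258946, also lies inside the GENCODE span of its gene, 3231403 to 3303373. The antioxidant element core was found in 8 members (21.1%, against 11.0% of all promoters), which were PSMB3, PSMD3, PSMD12, PSMD5, PSMD9, PSMG1, PSMG2 and PSME4. CCAAT boxes were found in 17 members (44.7%, against 33.0%). A match is a description of letters and not of binding.

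Chlorquinaldol was given at 2 doses to the same cells. In the alpha ring the genes moved apart. PSMA1 rose at both doses, PSMA3 and PSMA6 rose at 50 μM, and PSMA5 and PSMA7 fell at both. The ring's median changes were 0.08 and 0.12, with 1 gene higher and 2 lower of 7 at 20 μM and 3 higher and 2 lower at 50 μM. That is 42.9% and 71.4% called, beside 55.1% and 66.9% of all tested genes. All genes also moved both ways, with 27.1% higher and 28.0% lower at 20 μM and 32.2% and 34.7% at 50 μM.

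PSMA1 had 147, 145 and 154 scaled CPM in untreated cells, 176, 206 and 171 at 20 μM and 264, 229 and 251 at 50 μM. All libraries of each dose were above those of the step before it. The change was 0.31 ± 0.08 at 20 μM (adjusted p = 0.00401) and 0.74 ± 0.08 at 50 μM (1.67-fold, adjusted p = 4.18e-07). PSMA6 had 161, 176 and 183 in untreated cells, 172, 209 and 169 at 20 μM and 279, 235 and 227 at 50 μM. The lower dose overlapped the untreated cells and the higher dose did not (0.51 ± 0.10, adjusted p = 0.000161).

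PSMA7 had 136, 151 and 154 scaled CPM in untreated cells, 77.4, 89.4 and 80.6 at 20 μM and 86.0, 85.3 and 87.8 at 50 μM. Both doses were well below the untreated range and overlapped each other. The gene fell by 0.84 ± 0.08 at 20 μM (adjusted p = 2.32e-07) and by 0.77 ± 0.08 at 50 μM (adjusted p = 2.58e-07). PSMA5 fell by 0.69 ± 0.09 and 0.63 ± 0.09. PSMA3 had 70.3, 75.3 and 77.2 scaled CPM in untreated cells, 70.4, 93.6 and 74.5 at 20 μM and 89.1, 89.0 and 103 at 50 μM, and the last group alone was clear of the untreated one (0.33 ± 0.10, adjusted p = 0.00708). With the deposited FPKM the call at 50 μM ended (adjusted p up to 0.234).

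**Figure D3:**
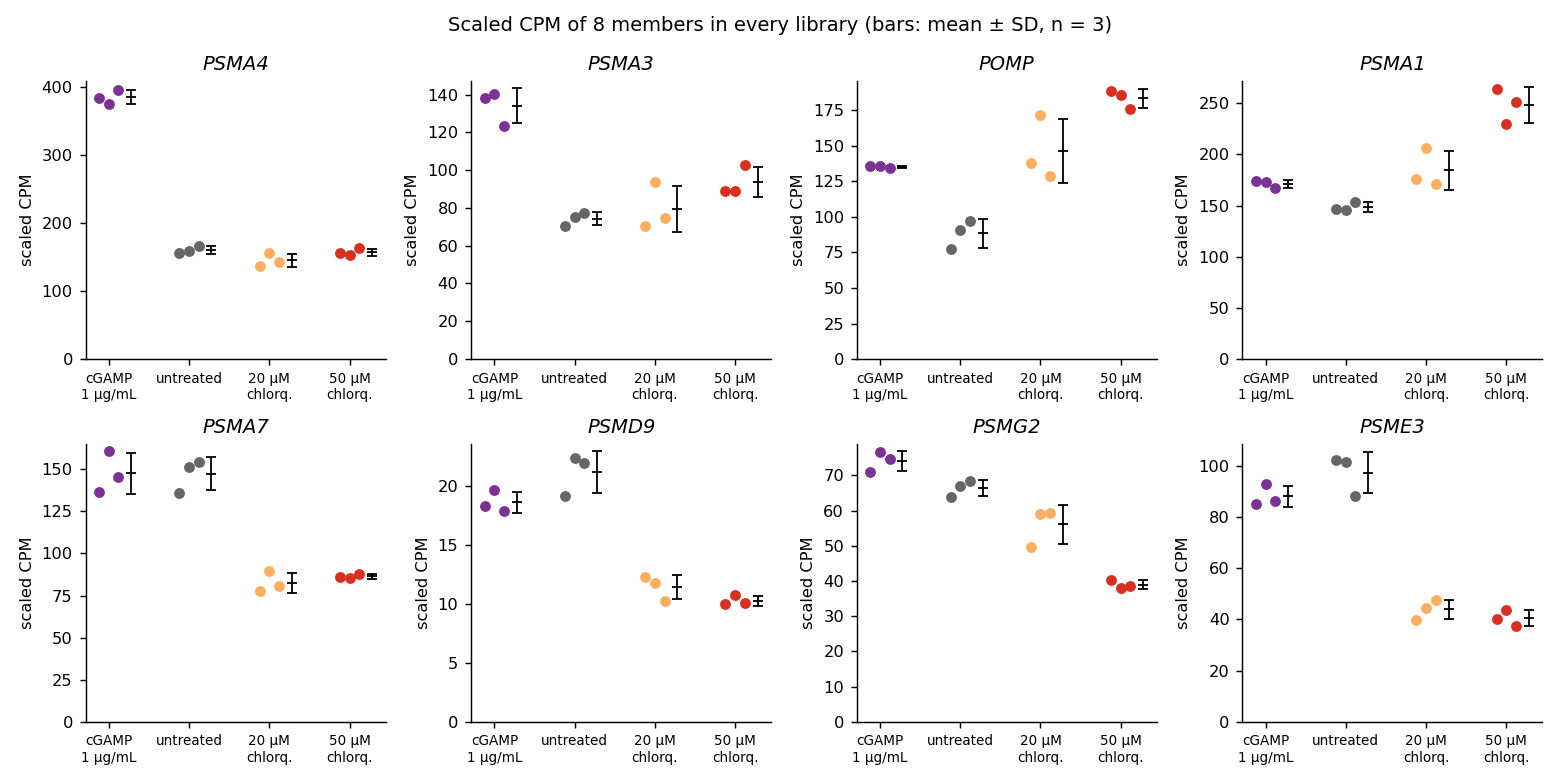
Scaled CPM of 8 members in each library, with bars for mean ± SD (n = 3), in the order cGAMP, untreated, 20 μM and 50 μM chlorquinaldol (chlorq.). PSMA4 and PSMA3 are high with cGAMP, POMP and PSMA1 are highest at 50 μM, and PSMA7, PSMD9, PSMG2 and PSME3 are lowest in the chlorquinaldol libraries.

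In the beta ring 5 of 7 genes fell at 20 μM and none rose, and at 50 μM 4 fell and PSMB1 rose by 0.22 ± 0.08 (adjusted p = 0.0165, 0.0967 without untreated replicate 1, and no call with the deposited FPKM, where the lowest change was 0.07 and the adjusted p reached 0.395). Calls made up 71.4% of the ring at each dose, beside 55.1% and 66.9% of all tested genes. The ring's median changes were -0.33 and -0.23. The largest was that of PSMB2, which fell by 0.61 ± 0.08 and 0.79 ± 0.08. PSMB3, a structural subunit gene, fell by 0.38 ± 0.09 and 0.54 ± 0.09, and PSMB4 was at -0.18 ± 0.08 and -0.11 ± 0.08 with no call.

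The 3 genes that encode the cutting sites changed by at most 0.37 in either direction against untreated cells. PSMB5, which encodes the chymotrypsin-like subunit, had 57.4, 64.5 and 59.1 scaled CPM with cGAMP, 54.4, 60.5 and 59.2 in untreated cells, 42.7, 51.2 and 44.0 at 20 μM and 51.8, 49.0 and 52.0 at 50 μM. Both doses lay below all untreated libraries. It fell by 0.34 ± 0.08 at 20 μM (adjusted p = 0.00229), and its change of -0.19 ± 0.08 at 50 μM did not pass (adjusted p = 0.0539). That value passed with upper-quartile factors, without untreated replicate 1 and with the deposited FPKM (-0.32, adjusted p = 0.00173), and ranged from -0.33 to -0.09 over all settings (adjusted p up to 0.411).

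PSMB6, which encodes the caspase-like subunit, had 28.8, 33.2 and 34.9 scaled CPM with cGAMP, 27.8, 30.3 and 32.4 in untreated cells, 22.5, 24.7 and 25.1 at 20 μM and 25.1, 21.4 and 23.5 at 50 μM. Again the chlorquinaldol libraries were all below the untreated ones. It fell by 0.33 ± 0.10 (adjusted p = 0.00850) and by 0.37 ± 0.10 (adjusted p = 0.00269). These calls ended without 20 μM replicate 1 (adjusted p = 0.0758) and without 50 μM replicate 2 (adjusted p = 0.0541).

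PSMB7, which encodes the trypsin-like subunit, had 75.9, 89.0 and 88.0 scaled CPM with cGAMP, 70.9, 78.9 and 79.4 in untreated cells, 59.5, 71.2 and 63.0 at 20 μM and 66.9, 60.8 and 67.3 at 50 μM. The 20 μM group overlapped the untreated cells by 1 library. Its changes of -0.24 ± 0.09 and -0.23 ± 0.09 passed (adjusted p = 0.0262 and 0.0264), but the calls ended in 8 and 9 of the 12 fits that left out 1 library, with adjusted p up to 0.231 and 0.301. Both held without untreated replicate 1 or cGAMP replicate 1 or 3, and the first also without 20 μM replicate 2. With cGAMP the changes of PSMB5, PSMB6 and PSMB7 were 0.06 ± 0.08, 0.10 ± 0.09 and 0.14 ± 0.09, with no call.

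The inducible counterparts were counted beside them. The immunoproteasome genes and those of its activator PA28 (PSMB8, PSMB9, PSMB10, PSME1 and PSME2), which are not members, all rose with cGAMP. All 5 fell at 20 μM and 4 fell at 50 μM. The shares of all tested genes were 11.6% higher with cGAMP, 28.0% lower at 20 μM and 34.7% lower at 50 μM. PSMB9 changed by 1.87 ± 0.11 with cGAMP and -1.10 ± 0.11 at 50 μM, PSMB8 by 0.95 ± 0.09 with cGAMP and -0.83 ± 0.09 at 20 μM, and PSME2 by -1.26 ± 0.11 and -1.37 ± 0.11 at the 2 doses.

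As a ratio of FPKM, PSMB5 over PSMB8 was 0.198 ± 0.0118 with cGAMP, 0.368 ± 0.0110 in untreated cells, 0.518 ± 0.0284 at 20 μM and 0.650 ± 0.0873 at 50 μM (mean ± SD, n = 3). PSMB6 over PSMB9 was 0.240 ± 0.00585, 0.769 ± 0.0275, 1.08 ± 0.0660 and 1.41 ± 0.301 in the same order of groups. PSMB7 over PSMB10 was 0.503 ± 0.0137, 0.694 ± 0.0128, 0.814 ± 0.0127 and 1.04 ± 0.127. In all 3 pairs the cGAMP libraries were below and the chlorquinaldol libraries above every untreated one. The ratios are within-library descriptions and were not tested.

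**Figure D4:**
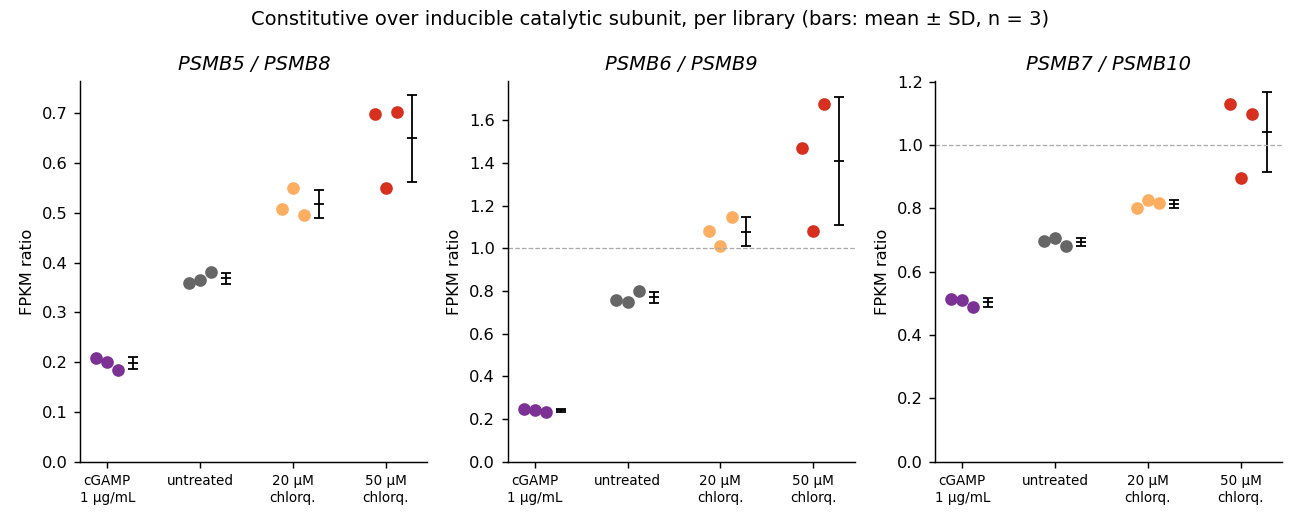
Ratio of the FPKM of each constitutive catalytic subunit gene to that of its inducible counterpart, 1 point per library and bars for mean ± SD (n = 3), in the order cGAMP, untreated, 20 μM and 50 μM chlorquinaldol (chlorq.). The dashed line marks equal levels, and the cGAMP libraries are lowest in each pair, down to 0.185 for PSMB5 over PSMB8.

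The regulatory particle had 17 member genes, which leave out its lid component SEM1. Chlorquinaldol lowered 11 of them and raised 1 at 20 μM, and lowered 8 and raised 2 at 50 μM. That is 70.6% and 58.8% called, where 55.1% and 66.9% of all tested genes were called. The median change was -0.28 at the lower dose and -0.05 at the higher. PSMD2, a base subunit that docks carriers of ubiquitinated proteins, had 189, 202 and 181 scaled CPM in untreated cells, 119, 127 and 127 at 20 μM and 117, 103 and 103 at 50 μM. Neither dose overlapped the untreated cells. It fell by 0.62 ± 0.08 (adjusted p = 5.58e-06) and by 0.82 ± 0.08 (adjusted p = 9.38e-08). PSMD1, the other large scaffold of the base, fell by 0.51 ± 0.10 and 0.78 ± 0.10. PSMD4, a ubiquitin receptor, was at 0.10 ± 0.08 at 20 μM and rose by 0.36 ± 0.08 at 50 μM.

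Of the 6 ATPases, 3 fell and 1 rose at 20 μM, and 2 fell and 1 rose at 50 μM. The called shares were 66.7% and 50%, beside 55.1% and 66.9% of all tested genes. PSMC6 had 59.3, 61.2 and 66.6 scaled CPM in untreated cells, 67.8, 85.3 and 79.0 at 20 μM and 82.3, 71.9 and 88.2 at 50 μM. Both doses were above all untreated libraries, at 20 μM by a narrow margin. It rose by 0.31 ± 0.10 (adjusted p = 0.0124) and by 0.37 ± 0.10 (adjusted p = 0.00274). The first call ended without untreated replicate 1 (adjusted p = 0.0550), and with the deposited FPKM both ended (adjusted p up to 0.256 and 0.330).

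PSMC5 fell by 0.42 ± 0.07 and 0.32 ± 0.07. It shares 874 exonic bases with FTSJ3 on the opposite strand, which fell by 0.99 ± 0.08 and 1.12 ± 0.09. PSMC4 fell by 0.28 ± 0.08 at 20 μM (adjusted p = 0.0616 without 20 μM replicate 1) and was at 0.00 ± 0.08 at 50 μM. PSMC3 fell by 0.22 ± 0.09 at each dose, but its calls (adjusted p = 0.0347 and 0.0284) ended in the same fits as those of PSMB7 (adjusted p up to 0.286 and 0.353). Counts of PSMC1, which showed no call, are also uncertain, since 13 pseudogenes together held 7.52% as many counts. PSMC1 shares 4671 exonic bases with NRDE2 on the opposite strand, which fell by 0.72 ± 0.11 and 0.87 ± 0.11.

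Of the 8 lid genes among the members, 6 fell at 20 μM and 4 at 50 μM, and none rose. These are 75% and 50% of the 8, beside 55.1% and 66.9% of all tested genes called in either direction. SEM1, a lid component outside the members, rose at 50 μM (mean 72.4 scaled CPM, against 55.8 in untreated cells). PSMD7, the structural partner of the deubiquitinase, fell by 0.54 ± 0.08 and 0.42 ± 0.08, and PSMD12 by 0.43 ± 0.10 and 0.64 ± 0.10. PSMD14, the deubiquitinase itself, was at -0.13 ± 0.09 and 0.06 ± 0.09. PSMD3 had 108, 112 and 101 scaled CPM in untreated cells, 71.3, 72.6 and 68.6 at 20 μM and 82.1, 94.1 and 92.2 at 50 μM. It was lowest at the smaller dose, and fell by 0.59 ± 0.08 (adjusted p = 6.85e-06) and by 0.25 ± 0.08 (adjusted p = 0.00843, 0.194 without 50 μM replicate 1).

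The 3 chaperones of the base did not move as 1 group. PSMD9 had 19.1, 22.3 and 21.9 scaled CPM in untreated cells, 12.2, 11.7 and 10.2 at 20 μM and 9.97, 10.7 and 10.1 at 50 μM. All chlorquinaldol libraries were far below the untreated ones. It fell by 0.89 ± 0.10 (adjusted p = 9.85e-07) and by 1.04 ± 0.10 (2.06-fold lower, adjusted p = 7.79e-08). WDR66, which shares 436 exonic bases with PSMD9 on the same strand and had 5.27% as many counts, rose by 1.68 ± 0.33 and 1.93 ± 0.33. PSMD10, known as gankyrin, had 45.5, 44.6 and 49.4 in untreated cells, 34.7, 42.9 and 38.0 at 20 μM and 30.3, 29.2 and 31.6 at 50 μM, a drop at each step. It fell by 0.27 ± 0.08 (adjusted p = 0.0103, and up to 0.145 without untreated replicate 3 or 20 μM replicate 1 or 3) and by 0.61 ± 0.08 (adjusted p = 5.12e-06). PSMD5 was at 0.08 ± 0.10 and -0.22 ± 0.11 with no call.

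Among the assembly factors of the core, POMP and the PSMG genes went opposite ways. POMP (ENSG00000132963, chromosome 13, 28659104 to 28678925) had 77.6, 90.6 and 97.2 scaled CPM in untreated cells, 138, 172 and 129 at 20 μM and 189, 186 and 176 at 50 μM. The 3 groups did not overlap. It rose by 0.73 ± 0.10 at 20 μM (1.65-fold, adjusted p = 1.05e-05) and by 1.05 ± 0.10 at 50 μM (2.08-fold, adjusted p = 6.33e-08). Against cGAMP, POMP was at 0.11 ± 0.10 at 20 μM (adjusted p = 0.352, with a 95% interval from -0.08 to 0.31) and higher by 0.44 ± 0.10 at 50 μM (adjusted p = 0.000835).

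The PSMG genes encode pairs of chaperones that build the alpha ring, and all 4 fell at both doses. Beside them, 28.0% of all tested genes were called lower at 20 μM and 34.7% at 50 μM. PSMG1 fell by 0.58 ± 0.10 and 0.57 ± 0.10, PSMG3 by 0.66 ± 0.11 and 0.74 ± 0.11, and PSMG4 by 0.68 ± 0.18 and 0.72 ± 0.18. PSMG2 had 63.9, 67.0 and 68.3 scaled CPM in untreated cells, 49.8, 59.1 and 59.4 at 20 μM and 40.3, 37.9 and 38.5 at 50 μM. Each dose lay below the step before it, with falls of 0.24 ± 0.08 (adjusted p = 0.0143, and up to 0.212 without untreated replicate 3, cGAMP replicate 2 or 20 μM replicate 1) and 0.77 ± 0.08 (adjusted p = 1.72e-07). PSMG2 shares 468 exonic bases with CEP76 and 92 with SPIRE1 on the opposite strand, which changed by -1.18 ± 0.15 and 1.18 ± 0.16 at 50 μM. PSMG4 shares 1388 with SLC22A23, which held 56.6% as many counts and rose by 1.95 ± 0.21 at 50 μM.

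The activators and the regulator PI31 gave the largest single fall. PSME3, which encodes a nuclear activator cap of the core, had 102, 102 and 88.3 scaled CPM in untreated cells, 39.8, 44.5 and 47.5 at 20 μM and 40.1, 43.8 and 37.6 at 50 μM. The 2 doses overlapped each other and were far below the untreated range. PSME3 (ENSG00000131467, chromosome 17, 42824385 to 42843758) fell by 1.15 ± 0.09 (2.22-fold lower, adjusted p = 1.38e-08) and by 1.27 ± 0.09 (2.41-fold lower, adjusted p = 1.24e-09). BECN1, which shares 300 exonic bases with it on the opposite strand and had 99.3% as many counts, was at -0.16 ± 0.07 and -0.23 ± 0.07. With cGAMP PSME3 had 85.0, 93.0 and 86.4 scaled CPM, overlapping the untreated cells (-0.14 ± 0.09, adjusted p = 0.242).

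PSME4, which encodes the large activator PA200, had 79.5, 73.8 and 72.8 scaled CPM with cGAMP, 77.5, 73.2 and 72.5 in untreated cells, 60.1, 64.6 and 65.2 at 20 μM and 82.8, 69.9 and 86.8 at 50 μM. The 20 μM group was lowest and overlapped none of the others. Its fall of 0.23 ± 0.08 there (adjusted p = 0.0246) ended as a call without untreated replicate 1, cGAMP replicate 2, 50 μM replicate 1 or 3 or any 1 of the 20 μM libraries (adjusted p up to 0.203), and with the deposited FPKM (up to 0.563). At 50 μM it was at 0.10 ± 0.08.

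PSMF1, which encodes PI31, had 38.4, 39.7 and 39.9 scaled CPM with cGAMP, 39.4, 38.8 and 40.7 in untreated cells, 34.6, 34.4 and 33.7 at 20 μM and 33.6, 33.2 and 32.0 at 50 μM. The chlorquinaldol libraries were all lower, by a small amount. The falls were 0.21 ± 0.07 (adjusted p = 0.0153) and 0.27 ± 0.07 (adjusted p = 0.00255). The call at 20 μM ended without untreated replicate 3, cGAMP replicate 2 or any 1 of the chlorquinaldol libraries (adjusted p up to 0.120), and that at 50 μM without 50 μM replicate 3 (adjusted p = 0.0543).

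Over all members, 20 of the 30 calls at 20 μM and 23 of the 29 at 50 μM remained whichever library was left out. Under every other scaling, filter, model and unit tried, 7 of the 9 calls with cGAMP, 21 of the 30 at 20 μM and 22 of the 29 at 50 μM remained. In the direct comparison with cGAMP, 34 of 42 members were lower at 20 μM and PSMD5 was higher, with 83.3% of members called against 55.6% of all tested genes (28.0% lower and 27.6% higher). At 50 μM 26 were lower and 3 higher than with cGAMP, with 69.0% of members called against 66.7% of all genes (34.7% lower and 32.0% higher).

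The step between the doses was tested directly. At 50 μM 9 of 42 members were higher than at 20 μM and 4 lower, which is 31.0%, where 38.1% of all tested genes were called (19.1% higher and 19% lower). The median member changed by 0.06 and the median gene by -0.02. The direction of that median was not stable, since it was -0.06 with the deposited FPKM and -0.01 without 20 μM replicate 1. Of the 13 calls, 10 remained whichever library was left out and 4 under every other scaling, filter, model and unit. The higher genes were PSMA1, PSMA6, PSMD11, PSMD3, PSME4, POMP, PSMD8, PSMC4 and PSMD4, and the lower ones PSMG2, PSMD10, PSMD5 and PSMD1. Of the core subunits 2 were higher and none lower, while of the regulatory particle 5 were higher and 1 lower.

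**Figure D5:**
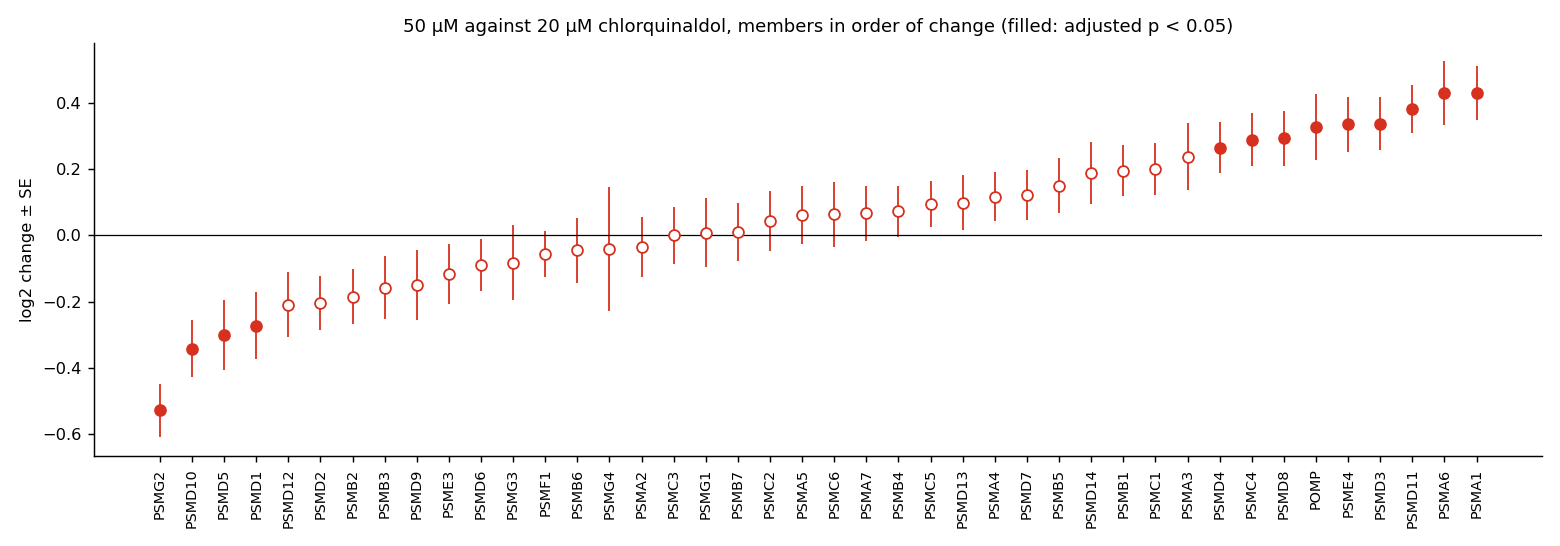
Log2 change ± SE of each tested member at 50 μM against 20 μM chlorquinaldol, in order of size, with filled points for an adjusted p below 0.05. PSMG2 is at the low end with -0.53 and PSMA1 at the high end with 0.43.

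PSMA1 averaged 248 ± 17.4 scaled CPM at 50 μM and 184 ± 18.9 at 20 μM (SD, n = 3 each), and PSMA6 247 ± 28.2 and 184 ± 22.4 in the same order. No libraries overlapped for either, with changes of 0.43 ± 0.08 (adjusted p = 0.000527) and 0.43 ± 0.10 (adjusted p = 0.00202). PSMD11, the lid subunit that clamps the regulatory particle to the core, had 56.1, 50.9 and 52.3 scaled CPM at 50 μM, against 40.7, 39.8 and 41.7 at 20 μM, with 53.4, 55.3 and 54.5 in untreated cells. It was low at the smaller dose alone, and was higher at 50 μM by 0.38 ± 0.07 (adjusted p = 0.000514). With the deposited FPKM it had no call at 20 μM (adjusted p up to 1.00) and was higher at 50 μM than in untreated cells by 0.27 (adjusted p = 0.0296, log2(FPKM + 1)). The cause of that difference between units was not tested.

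PSMG2 averaged 38.9 ± 1.26 scaled CPM at 50 μM and 56.1 ± 5.47 at 20 μM, and PSMD10 30.4 ± 1.24 and 38.5 ± 4.11. Neither pair overlapped, with changes of -0.53 ± 0.08 (adjusted p = 6.61e-05) and -0.34 ± 0.09 (adjusted p = 0.00423). PSMD5 had 19.5, 15.9 and 17.0 at 50 μM, against 18.5, 23.0 and 22.9 at 20 μM. The groups overlapped, and the change of -0.30 ± 0.11 (adjusted p = 0.0322) ended as a call without cGAMP replicate 2, 50 μM replicate 2 or 3 or 20 μM replicate 2 or 3 (adjusted p up to 0.180). That of PSMD1 (-0.27 ± 0.10, adjusted p = 0.0429) ended without any 1 of the untreated libraries, or without replicate 2 or 3 of any other group (adjusted p up to 0.253), and that of POMP (0.33 ± 0.10, adjusted p = 0.0150) without 20 μM replicate 3 (adjusted p = 0.0693).

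These counts depended on the unit and on single libraries. Without 20 μM replicate 2, 14 members were higher and 2 lower. Also 2 were lower without cGAMP replicate 2, 50 μM replicate 2, 50 μM replicate 3 or 20 μM replicate 3. On the deposited FPKM, log2(FPKM + 1), 3 were higher and 11 lower, and after each library was centred on its own median 8 were higher and 2 lower. The deposited FPKM moved the median of all genes by -0.11 for this comparison and by -0.12 for 50 μM against untreated cells.

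Genes that work around the proteasome were counted in the same fit, in which 23.3% of all genes were called with cGAMP, 55.1% at 20 μM, 66.9% at 50 μM and 38.1% between the doses. Of 11 proteins that bind it, 1 rose and 1 fell with cGAMP (the lid component SEM1 by 0.44 ± 0.10, and the ubiquitin ligase UBE3C at -0.26 ± 0.08). At 20 μM 2 rose and 3 fell, with UBE3C at -0.74 ± 0.08 and the ubiquitin receptor ADRM1 at -0.39 ± 0.08. At 50 μM 7 rose and 4 fell, led by AKIRIN2, which brings proteasomes into the nucleus (1.26 ± 0.09), and ZFAND5, a proteasome-binding zinc finger protein (0.82 ± 0.08). Between the doses 5 were higher and 1 lower at 50 μM.

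Of 11 regulators of proteasome genes, 2 rose and 3 fell with cGAMP, 3 rose and 2 fell at 20 μM, and 8 rose and 2 fell at 50 μM. That is 45.5%, 45.5% and 90.9% of the list, beside the shares of all genes just given. Between the doses 9 were higher at 50 μM and none lower. MAFF, a small Maf protein that pairs with activators and repressors at antioxidant elements, rose by 2.22 ± 0.21 and 3.77 ± 0.21, while MAFG, a related small Maf named after its values were seen, fell by 1.20 ± 0.09 and 0.80 ± 0.09. BACH1, a repressor at such elements, rose by 1.45 ± 0.09 and 2.52 ± 0.09. NFE2L3 rose with cGAMP by 1.39 ± 0.13 and the ubiquitin ligase SYVN1 fell by 0.51 ± 0.11. NFE2L1, the factor known to switch on proteasome genes when the complex is inhibited, was chosen after its values were seen. Its mRNA was at -0.07 ± 0.10 at 20 μM and rose by 0.62 ± 0.10 at 50 μM. It was not alone, since NFE2L2 of the same list averaged 80.6 scaled CPM in untreated cells, 95.9 at 20 μM and 161 at 50 μM.

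Of 11 ubiquitin and shuttle genes, 1 rose and 1 fell with cGAMP (the ubiquitin-activating enzyme UBA6 by 0.47 ± 0.08, and the shuttle UBQLN4 at -0.46 ± 0.10). At 20 μM 3 rose and 3 fell, and at 50 μM 4 rose and 1 fell. UBB, a gene for ubiquitin itself, fell by 0.79 ± 0.09 and 0.90 ± 0.09. Between the doses 3 were higher at 50 μM and none lower, among them UBQLN4 (0.49 ± 0.10).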

How the data were processed

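Gene-level estimated counts and FPKM of 12 libraries were used as the authors deposited them. Both came from RSEM on GRCh38, per the submitters' processing notes, which also name DESeq2 1.26.0, and libraries were oligo(dT)-selected and run on DNBSEQ, per the labels' protocols. RSEM version, annotation release and read strand are not given in the sources used here. Of 62914 entries, 326 without an Ensembl identifier (0.18 to 0.29% of counts) were left out. Counts were rounded, filtered (filterByExpr, minimum count 10), scaled by TMM (factors 0.905 to 1.06) and fitted with edgeR 4.0.16 under R 4.3.3, all 4 groups sharing 1 model without covariates. Adjusted p-values are quasi-likelihood F-test values after Benjamini-Hochberg correction over 16628 genes, called below 0.05, and the SE is the log2 change over the square root of F. Positions are from GENCODE 29. The members and lists were chosen with earlier results of these data known. Library values are given for the 3 largest called increases and decreases per comparison and for PSMB5, PSMB6, PSMB7, POMP, PSME3, PSME4 and PSMF1. Names of context genes follow the 2 largest called changes of each list, of which 1 gene is not reported here. Other settings tried were 2 further scalings (RLE, upper-quartile), DESeq2 1.42.0, other filters, a fit to the compared groups alone, a block for replicate number, limma 3.58.1 on log2 of the deposited FPKM plus 1 or 0.1, adjusted p below 0.01, each library left out, and centred FPKM, the last chosen after seeing the data. The fit was also run on simulated counts in which few genes changed, equally up and down. That differs from these data, so the run cannot test the scaling used here.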

Additional observations from a re-analysis of the deposited data

How the results depend on the processing

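Every change is relative to the bulk of genes and says nothing of RNA amounts per cell. Depth was similar in all libraries, and with 3 against 3 an exact test of 1 gene could not pass 0.05, so calls rely on the spread pooled over genes. Members called higher and lower stayed within 1.5 times the values of the report under each setting, with these exceptions. With cGAMP 14 rose with only the groups compared. At 50 μM 4 rose with limma on log2(FPKM + 1) without a filter. For 50 μM against 20 μM, 2 were lower with RLE factors, only the groups compared, DESeq2, adjusted p below 0.01 or centred FPKM, and 7 with upper-quartile factors. There limma gave 3 higher and 11 lower on log2(FPKM + 1) and on log2(FPKM + 0.1), and 2 higher and 8 lower without a filter. Leaving out each library in turn gave 7 to 11 higher and 1 lower with cGAMP, 2 to 4 and 18 to 27 at 20 μM, 6 to 10 and 19 to 23 at 50 μM, and 8 to 14 and 2 to 5 for the step between doses.

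Some single values changed sign, and the cause was not tested. PSMD11 with cGAMP was at 0.15, 0.16 and 0.15 on the deposited FPKM (plus 1, plus 0.1, no filter) and 0.19 when centred, at 20 μM at 0.0059 when centred, and at 50 μM at 0.27, 0.27 and 0.27, and 0.38 when centred. At 50 μM leaving out each library gave -0.0511 to 0.0629 for PSMD11 and -0.0519 to 0.0573 for PSMA4. Between the doses the deposited FPKM, as log2(FPKM + 1), log2(FPKM + 0.1) and with no filter, gave PSMA4 -0.0178, -0.0179 and -0.0178, PSMC6 -0.0454, -0.0461 and -0.0454, PSMA7 -0.0671, -0.0676 and -0.0671, and PSMB7 -0.12, -0.13 and -0.12, and centred FPKM gave PSME3 0.0231. A further 60 values with no call crossed 0 by less than 1 SE. Same-numbered libraries did not deviate together (18 pairs, r from -0.11 to 0.07), and with a replicate block 8 members rose and 1 fell with cGAMP, 3 and 28 at 20 μM, 7 and 22 at 50 μM, and 9 and 3 between the doses.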
